A study of Mus musculus with 3 samples.

Results

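The genes examined here are 35 genes of cholesterol supply, taken from a list of named members, out of 21887 protein-coding genes on mouse chromosomes 1 to 19, X and Y. They fall into enzymes of cholesterol synthesis (18 genes), receptors for lipoprotein uptake (2), proteins of lysosomal export and the cholesterol ester cycle (6), exporters (2) and the sensors that set the output of the pathway (7). For each gene the bp covered by peaks of trimethylated lysine 4 of histone H3 (H3K4me3, a mark of active gene starts) were counted in the gene and 5 kb around it (mm10 positions), at each of 3 times. The libraries came from granulosa cells, the somatic cells that surround the oocyte in the follicle, of wild type C57BL/6 female mice of postnatal days 21 to 28. All mice had received 4 IU of eCG, a gonadotropin that makes follicles grow. The 0 h group was taken before hCG, which mimics the ovulatory LH surge, and the 4 h and 12 h groups were taken 4 h and 12 h after 5 IU of hCG. Cells were isolated by puncture of follicles, and how many mice gave each library is not stated in the labels. Each time had 1 library, so no difference has a replicate check or a test, and every value below describes these 3 libraries.

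Cells make cholesterol from acetyl-CoA through mevalonate, squalene and lanosterol. The pathway is controlled by SREBP transcription factors, which SCAP escorts to the Golgi for activation when sterols are low and which INSIG proteins hold back in the endoplasmic reticulum when sterols are high. The LXR receptors act in the opposite sense, since they are switched on by oxysterols and drive export of cholesterol. Granulosa cells turn into luteal cells after the LH surge and then make progesterone from cholesterol, which rodent luteal cells take up largely from HDL and also store as esters.

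The peak lists held 20669 to 23662 peaks and covered 8.87 Mb at 0 h, 10.1 Mb at 4 h and 8.93 Mb at 12 h. They give positions alone, so sequencing depth and peak height are unknown and breadth (covered bp) is the measure throughout. In a bulk sample a narrower domain in every cell and a domain in fewer cells cannot be told apart. Of 12 granulosa markers, 7, 5 and 6 had a peak within 2.5 kb of a start at 0 h, 4 h and 12 h, with summed bp of 9356, 5805 and 3790. Foxl2, a defining granulosa factor, had 189 bp at 0 h and 0 bp later, while the steroidogenic factor gene Nr5a1 had 1704, 1522 and 1531 bp. Breadth fell at each step for Hsd17b1 (2959, 1285 and 349 bp), Cyp19a1 (1594, 845 and 382), Fshr (1707, 1495 and 675) and Inha (780, 658 and 0). Inhbb (423, 0 and 549 bp) and Wt1 (0, 0 and 304) were highest at 12 h. Amh, Inhba, Gata4 and Nr5a2 had 0 bp at every time. Immune markers had a peak in 0 of 6 genes at every time. Endothelial markers had one in 0, 2 and 1 of 6 (summed bp 0, 517 and 164) and stromal and smooth muscle markers in 0, 1 and 1 of 6 (0, 139 and 192). Theca markers had one in 1 of 4, Ptch1 alone (903, 1670 and 1199 bp), with Cyp17a1 and Insl3 at 0, and oocyte markers in 1 of 7, Gdf9 (810, 1166 and 530 bp). The label of the 12 h library names lane 5 and the others lane 4, and peak names show a setting (nolambda) at 0 h and 4 h that those at 12 h do not. The part of these differences in the results below was not tested, and lane, peak naming and the 12 h time cannot be told apart.

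Nearly every gene of cholesterol supply had a peak in or near it at every time. A peak lay in the gene or 5 kb around it for 34 of 35 members at 0 h, 4 h and 12 h (97.1%, exact Clopper-Pearson 95% interval 85.1 to 99.9, counting error only), against 56.3%, 58.3% and 56.2% of all protein-coding genes. The exception was Abcg1, an exporter gene driven by LXR, which had 0 bp at all 3 times. Within 2.5 kb of a start the counts were 32, 33 and 33 of 35, against 50.6%, 52.2% and 50.4% of all genes. Counting only peaks nearest to the member's own start, they were 32, 34 and 34, since Nr1h3 and Lipe then had 0 bp at 0 h. That last count was not made for all genes. In the 2.5 kb and own-start counts, the 7 members without an annotated start were given the gene end with more covered bp. Other genes without an annotated start were treated alike, and this choice favours a peak at the start. Among genes with a peak in the gene or 5 kb around it, the median breadth was 896, 1118 and 1026 bp for members and 852, 916 and 845 bp for all genes. Summed over members, covered bp came to 32674, 37119 and 35252. The 4 h sum was 13.6% above 0 h and the whole 4 h list was 14.1% above it, while at 12 h the members were 7.89% and the list 0.657% above 0 h.

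**Figure D1:**
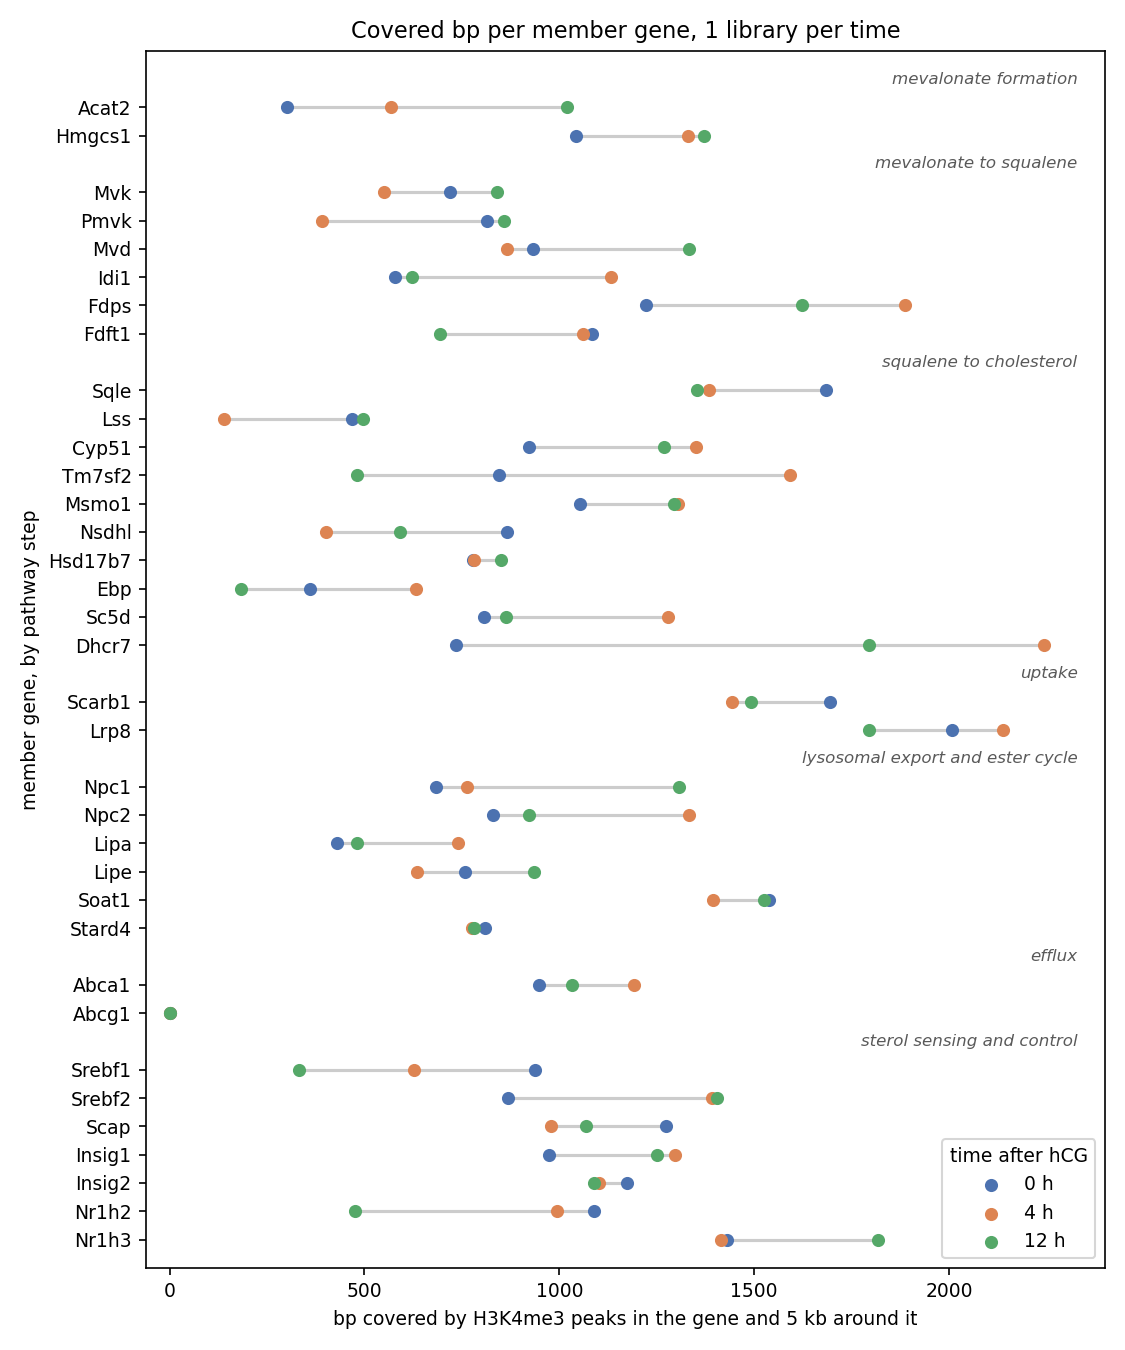
Covered bp (x axis) of each member gene (y axis, grouped by pathway step) at 0 h, 4 h and 12 h after hCG, with 1 point per library and a grey line from the lowest to the highest time. Abcg1 lies at 0, and the widest spans belong to Dhcr7 (735 to 2243 bp), Tm7sf2 (482 to 1593 bp) and Acat2 (302 to 1019 bp).

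Individual members changed in both directions. A gene is called broader or narrower below when its covered bp differed by at least 1.5-fold between 2 times, after subtraction of the median log2 ratio of all genes (0.12 for 0 h to 4 h, -0.14 for 4 h to 12 h and -0.02 for 0 h to 12 h), or when it had peaks at only 1 of the 2 times. From 0 h to 4 h, 6 of 34 members were broader, against 17.7% of all genes with a peak at either time, and 4 were narrower, against 12.0%. From 4 h to 12 h, 8 were broader, against 11.3%, and 5 narrower, against 17.4%. From 0 h to 12 h, 4 were broader, against 16.0%, and 5 narrower, against 16.4%. The counts lie near or below the background shares except for the 8 of 34 members broader from 4 h to 12 h. That exception depended on the setting. At 2-fold, 2 of 34 were broader from 4 h to 12 h, against 5.58% of all genes. Without narrow peaks, at 1.5-fold, 10 of 34 were, against 14.1%. Among the 22 members with a peak and no start of another protein-coding gene in the window, 3 were broader and 3 narrower from 4 h to 12 h. Starts of noncoding genes, as in the window of Hsd17b7, were not excluded. The share of all genes under the same restriction was not computed, so these counts have no background beside them. Without subtraction of the median, 10 members were broader and 3 narrower from 0 h to 4 h, against 21.4% and 9.51% of all genes, and 6 broader and 7 narrower from 4 h to 12 h, against 8.61% and 21.9%.

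The median member had a centred log2 ratio of -0.07 from 0 h to 4 h, 0.12 from 4 h to 12 h and 0.13 from 0 h to 12 h. The sign of the first depended on the window, since it was 0.11 within 2.5 kb of gene starts. The time with the most covered bp was 0 h for 10 members, 4 h for 13 and 12 h for 11. Over all genes with a peak at every time these shares were 29.1%, 46.4% and 24.5%. In all, 17 members were past 1.5-fold in at least 1 comparison, against 47.8% of all genes with a peak at any time, and 17 in none. The members' share is thus near the background. The latter had 776 to 2139 bp, and their highest time was 1.04 to 1.61 times their lowest. The comparisons share libraries, so a low 4 h value shows both as narrower before 4 h and as broader after it.

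**Figure D2:**
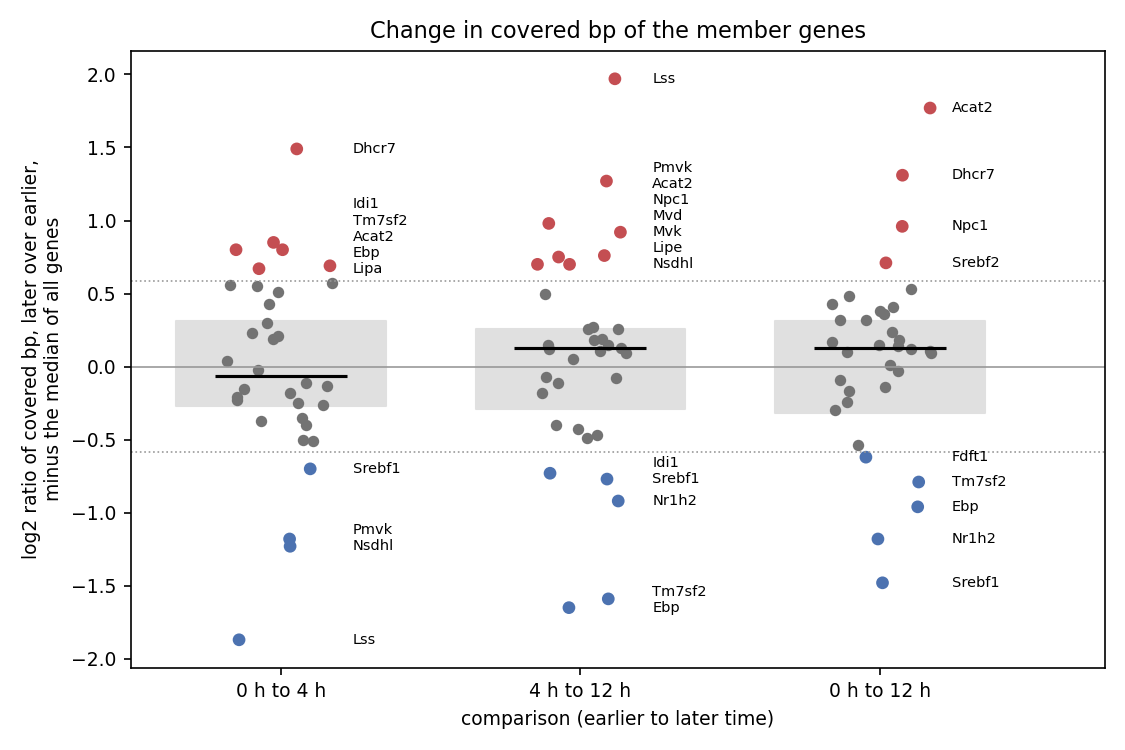
Centred log2 ratio of covered bp (y axis) for the 34 members with peaks, in each comparison of 2 times (x axis), with 1 point per gene and a black line at the members' median. Grey boxes span the middle 50% of all genes and dotted lines mark 1.5-fold, and named genes lie past it: Dhcr7 at 1.49 is highest and Lss at -1.87 lowest from 0 h to 4 h.

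Both enzymes on the way to mevalonate had their most covered bp at 12 h. Acat2 (chr17:12943042-12960725, minus strand), the cytosolic thiolase that opens the pathway, had 302 bp at 0 h, 569 at 4 h and 1019 at 12 h. It was broader in each interval, with centred log2 ratios of 0.80 and 0.98, and 1.77 over the whole course. Part of this lay nearer to the start of its neighbour Acat3, and the peaks nearest to the start of Acat2 covered 302, 430 and 561 bp. On those peaks the ratios were 0.39 and 0.52, within 1.5-fold, and 0.91 from 0 h to 12 h. The own peak at 12 h, chr17:12959770-12960330, lay 395 bp downstream of the start. Without narrow peaks (under 193 bp, the narrowest 25% over the 3 lists) its ratio from 0 h to 4 h was -0.36. Hmgcs1, which encodes HMG-CoA synthase and is a classic SREBP target, had 1044, 1331 and 1372 bp and stayed within 1.5-fold. Its peaks began 128, 140 and 170 bp downstream of the start. At 0 h they were 3 separate peaks, the widest of 651 bp, and at 12 h the widest was 1023 bp. The Hmgcs1 promoter (RefSeq, GRCm38.p6, 250 bases before to 50 after the start, shown because it holds the only match to the sterol regulatory element among the 28 members with a promoter sequence) lies on the plus strand at chr13:119690101-119690400. Capitals mark the sterol element TCACCCCAC, 137 bases before the start, and 4 CCAAT boxes, each on the opposite strand as ATTGG.
Hmgcs1: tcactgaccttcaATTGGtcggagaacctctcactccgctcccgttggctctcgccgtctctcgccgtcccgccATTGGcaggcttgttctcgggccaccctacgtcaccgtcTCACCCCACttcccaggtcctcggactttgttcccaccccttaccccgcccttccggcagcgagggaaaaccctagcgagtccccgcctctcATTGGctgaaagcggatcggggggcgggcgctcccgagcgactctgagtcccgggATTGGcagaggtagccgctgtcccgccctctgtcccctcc

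From mevalonate to squalene the members split by time. Pmvk (chr3:89454541-89469014, plus strand), phosphomevalonate kinase, had 815, 390 and 857 bp, low at 4 h alone (centred log2 ratios of -1.18 and 1.27). Mvk (chr5:114444264-114460591, plus strand), mevalonate kinase, had 720, 549 and 839 bp, and Mvd (chr8:122433596-122443422, minus strand), the decarboxylase that makes isopentenyl diphosphate, had 933, 865 and 1333 bp. Both were thus lowest at 4 h as well and broader from 4 h to 12 h (0.75 and 0.76, the latter 0.57 and within 1.5-fold with a 1 kb flank). For Mvk the upstream peak, 391 bp at 12 h, lay nearer to the start of Mmab, and its own peaks covered 571, 378 and 448 bp, ratios of -0.71 and 0.38, so that on those peaks it was narrower at 4 h and within 1.5-fold after it. At Mvd a peak of 290 bp, 93 bp downstream of the start, was present at 12 h and one of 257 bp at 0 h, and at 4 h only the peak upstream of the start remained near it. Idi1 (chr13:8885606-8892396, plus strand), the isomerase that interconverts the isoprene units, went the other way, with 579, 1134 and 622 bp (0.85 and -0.73, the latter -0.57 and within 1.5-fold without narrow peaks). Its 4 h domain held a peak of 700 bp downstream of the start and a further one of 295 bp beyond it that the other times lacked. Fdps, which makes farnesyl diphosphate, had 1223, 1887 and 1624 bp and stayed within 1.5-fold. Of these, 926, 1301 and 1300 bp lay at the gene end taken as its start, since none was annotated, and the rest at Rusc1. Fdft1 (chr14:63145150-63181687), squalene synthase and the first enzyme committed to sterols, had 1084, 1062 and 695 bp and was narrower from 0 h to 12 h (-0.62, or -0.49 with peaks within 1 kb joined, which ends the call). Its 3 peaks at each time lay inside the gene, more than 2.5 kb from both ends, the widest at 12 h over chr14:63177113-63177425. No start or strand was given for Fdft1, so whether a start lies at these peaks is not known. For the same reason it has 0 bp in the counts within 2.5 kb of a start.

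Pmvk and Idi1 show how the mark sat at these starts. Pmvk has 2 annotated starts, and all its peaks lay at the downstream one, with 0 bp at the upstream start. The peak at that start ran over chr3:89459208-89459678 at 0 h, chr3:89459184-89459573 at 4 h and chr3:89459256-89460112 at 12 h, so that the 4 h peak ended just past the start. Promoters of both genes are on the plus strand, at chr3:89459321-89459620 for the downstream start of Pmvk and chr13:8885356-8885655 for Idi1, and are shown because these genes moved in opposite directions at 4 h. Capitals mark CCAAT boxes, of which Pmvk has 0 here and Idi1 has 2.
Pmvk downstream start: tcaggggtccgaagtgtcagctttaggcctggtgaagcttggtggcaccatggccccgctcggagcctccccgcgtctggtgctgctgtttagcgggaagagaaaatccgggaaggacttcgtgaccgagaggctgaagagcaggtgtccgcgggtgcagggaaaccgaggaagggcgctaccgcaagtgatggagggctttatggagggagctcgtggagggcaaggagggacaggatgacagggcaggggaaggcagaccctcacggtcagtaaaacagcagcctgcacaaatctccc
Idi1: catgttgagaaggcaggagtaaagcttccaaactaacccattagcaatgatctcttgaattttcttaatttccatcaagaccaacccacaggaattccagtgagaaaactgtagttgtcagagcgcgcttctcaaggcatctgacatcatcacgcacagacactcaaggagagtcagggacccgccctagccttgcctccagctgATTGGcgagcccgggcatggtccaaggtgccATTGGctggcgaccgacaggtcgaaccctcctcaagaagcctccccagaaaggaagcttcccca

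The steps from squalene to cholesterol held the largest changes to and from 4 h. Dhcr7 (chr7:143823167-143848410, plus strand), which makes cholesterol from 7-dehydrocholesterol in the last step of one branch, had 735, 2243 and 1794 bp (centred log2 ratios of 1.49 from 0 h to 4 h and 1.31 from 0 h to 12 h). It went from percentile 39.2 of all marked genes at 0 h to 97.8 at 4 h and 95.4 at 12 h. All of its own peaks lay at the most downstream of its 3 annotated starts. There the peak downstream of the start covered 277 bp at 0 h (chr7:143830441-143830717) and 1672 bp at 4 h (chr7:143830284-143831955), and at 12 h 2 peaks of 445 and 1002 bp filled nearly the same stretch. The rest, 141, 379 and 347 bp, lay nearer to the start of Nadsyn1. The promoter of that downstream start, on the plus strand at chr7:143829964-143830263, is shown because the change lay there, with 2 CCAAT boxes in capitals.
Dhcr7 downstream start: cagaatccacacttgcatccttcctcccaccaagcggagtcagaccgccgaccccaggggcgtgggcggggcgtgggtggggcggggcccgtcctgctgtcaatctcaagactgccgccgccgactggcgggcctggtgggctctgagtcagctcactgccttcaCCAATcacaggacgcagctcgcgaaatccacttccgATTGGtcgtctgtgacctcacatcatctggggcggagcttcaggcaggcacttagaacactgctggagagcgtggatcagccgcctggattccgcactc

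Lss (chr10:76531565-76557139, plus strand), lanosterol synthase, which closes the sterol rings, had 468, 139 and 496 bp, low at 4 h (-1.87 and then 1.97). The 4 h value is 1 peak (chr10:76531677-76531815) of the narrowest width in that list (139 bp), so the size of these ratios rests on that floor. Nsdhl (chrX:72918521-72958528, plus strand), a dehydrogenase that acts in demethylation of sterols, was also lowest at 4 h, with 867, 400 and 590 bp (-1.23 and 0.70, the latter 0.56 and within 1.5-fold without centring). Its peak upstream of the start, present at 0 h alone, lay nearer to the start of Cetn2. Ebp (chrX:8185329-8193512, minus strand), the sterol isomerase, had 361, 631 and 183 bp and was highest at 4 h (0.69 and -1.65), although with a 10 kb flank these ratios were 0.27 and -0.51, within 1.5-fold. At 4 h a second peak of 362 bp lay next to its start, and at the other times only the peak 685 bp (0 h) or 686 bp (12 h) downstream was present. Tm7sf2 (chr19:6062821-6067850, minus strand), a sterol reductase, had 845, 1593 and 482 bp, but most of this lay near Fau and Znhit2, and its own peak covered 296, 351 and 158 bp. The own peak was within 1.5-fold from 0 h to 4 h (0.13) and narrower from 4 h to 12 h (-1.01). At 12 h the own value of Tm7sf2 and the value of Ebp are each a single peak, of 158 and 183 bp. The narrowest peak of that list has 152 bp, so the size of their ratios to 12 h rests on values near that floor.

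The other enzymes of these steps stayed within 1.5-fold over the whole window. Sqle, squalene epoxidase, a rate-limiting step, was broad at each time with 1684, 1385 and 1353 bp. Cyp51, the lanosterol demethylase, had 923, 1350 and 1269 bp, and Msmo1, which removes methyl groups after it, had 1054, 1305 and 1295 bp. Both were lowest at 0 h. Sc5d, the desaturase that precedes DHCR7, had 808, 1279 and 862 bp, highest at 4 h. Hsd17b7, a keto-sterol reductase that also forms estradiol, had 779, 782 and 851 bp in its window, of which 633, 439 and 851 bp were nearest to its own start. On those peaks Hsd17b7 was narrower from 0 h to 4 h (-0.64) and broader from 4 h to 12 h (1.09), low at 4 h like Lss and Nsdhl.

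Both uptake receptors stayed within 1.5-fold at all times. Scarb1, the HDL receptor through which luteal cells take up cholesterol esters, had 1696, 1444 and 1493 bp, at percentiles 94.0, 82.7 and 89.7 of marked genes. Lrp8, a receptor for apolipoprotein E, had 2007, 2139 and 1795 bp, of which 1114, 1278 and 961 bp were its own and the rest lay at the start of Magoh. Lrp8 thus ranked high by its window in part through that neighbour. Within 2.5 kb of its starts it also had 1114, 1278 and 961 bp. The median of members with a peak there was 848, 980 and 936 bp.

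Among the lysosomal and ester cycle genes, Npc1 differed most. Npc1, which exports cholesterol from the lysosome, had 683, 763 and 1308 bp, and was broader from 4 h to 12 h (0.92, or 0.50 with peaks within 1 kb joined, which ends that call) and from 0 h to 12 h (0.96). Its peaks numbered 2, 2 and 3, and the outermost of them, 396 bp at 4 h and 374 bp at 12 h, was absent at 0 h. Npc2, its soluble partner, had 830, 1334 and 921 bp and stayed within 1.5-fold. The own peaks of Npc2 covered 598, 802 and 606 bp, the others lying at the start of Isca2. Lipa (chr19:34492316-34527474, minus strand), the lysosomal lipase that frees cholesterol from lipoprotein esters, had 429, 740 and 480 bp and was broader at 4 h (0.67), when peaks of 271 and 469 bp lay within 1 kb downstream of the start. Lipe (chr7:25379527-25398486, minus strand), the hormone-sensitive lipase that frees stored esters for steroid synthesis, had 759, 635 and 936 bp. Its call from 4 h to 12 h (0.70) came from a peak nearer to the start of 4732471J01Rik, and on its own peaks (0, 325 and 274 bp) the ratio was -0.11. The 0 bp at 0 h reflects 1 unbroken peak over both genes that lay nearer to the neighbour. Soat1, which makes the esters, had 1539, 1395 and 1526 bp, and Stard4, a sterol carrier, had 809, 776 and 781 bp, the smallest spread of all members. The exporter Abca1 had 948, 1191 and 1033 bp, within 1.5-fold throughout.

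The 2 SREBP genes differed in direction. Srebf1 (chr11:60199084-60224186, minus strand), which encodes SREBP-1, the form tied mainly to fatty acid synthesis, had 938 bp at 0 h, 627 at 4 h and 333 at 12 h. It was narrower in each comparison, with centred log2 ratios of -0.70, -0.77 and -1.48. Srebf2 (chr15:82147269-82205379, plus strand), which encodes SREBP-2, the main driver of cholesterol genes, had 869, 1391 and 1406 bp and was broader from 0 h to 12 h (0.71). The call for Srebf2 was lost with peaks within 1 kb joined (0.37) and with a 10 kb flank (0.51), and that for Srebf1 from 0 h to 4 h without centring (-0.58). At 0 h Srebf2 carried peaks of 143 and 726 bp with a gap between them, and at 4 h and 12 h a single unbroken peak ran from just after the start (chr15:82147312-82148702 and chr15:82147320-82148725). Srebf1 has 3 annotated starts. The most downstream start had a peak of 617 bp at 0 h (chr11:60209789-60210405) and 0 bp at 4 h and 12 h, while the middle start had 321, 627 and 333 bp, so the step to 4 h lay at the former and the step to 12 h at the latter. Srebf1 is known to use alternative starts that give the SREBP-1a and SREBP-1c forms, and the promoter table does not say which start gives which. Both promoters are shown because of this contrast, Srebf1 at chr11:60210422-60210721 on the minus strand and Srebf2 at chr15:82147019-82147318 on the plus strand, each read along its gene with the CCAAT box in capitals (1 in each, as ATTGG).
Srebf1 most downstream start: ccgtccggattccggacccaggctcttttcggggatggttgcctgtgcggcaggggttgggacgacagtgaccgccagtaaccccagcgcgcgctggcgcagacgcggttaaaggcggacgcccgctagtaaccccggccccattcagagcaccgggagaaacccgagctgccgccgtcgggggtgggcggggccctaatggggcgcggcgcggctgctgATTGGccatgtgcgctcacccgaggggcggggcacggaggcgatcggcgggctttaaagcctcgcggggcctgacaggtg
Srebf2: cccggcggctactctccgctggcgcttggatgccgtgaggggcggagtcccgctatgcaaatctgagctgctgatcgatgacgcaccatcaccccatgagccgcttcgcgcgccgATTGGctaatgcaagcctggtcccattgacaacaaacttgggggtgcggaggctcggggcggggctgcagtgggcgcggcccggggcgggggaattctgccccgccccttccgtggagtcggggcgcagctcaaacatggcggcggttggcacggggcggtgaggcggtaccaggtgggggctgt

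The partners of SREBP varied less. Scap had 1275, 980 and 1068 bp, Insig1, itself an SREBP target, had 973, 1297 and 1252 bp, and Insig2 had 1175, 1103 and 1089 bp. All 3 stayed within 1.5-fold. Nr1h2 (chr7:44549616-44553968, minus strand), which encodes LXR beta, had 1089, 995 and 476 bp and was narrower at 12 h (-0.92 from 4 h and -1.18 from 0 h). Its own peaks covered 594, 723 and 310 bp, with the peak upstream of the start absent at 12 h. Nr1h3, which encodes LXR alpha, had 1431, 1415 and 1819 bp in its window, but nearly all of it lay at Acp2 and Madd. At its own starts it had 0 bp at 0 h, 150 at 4 h and 280 at 12 h, each a single peak, and the 4 h peak was close to the narrowest width of that list.

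**Figure D3:**
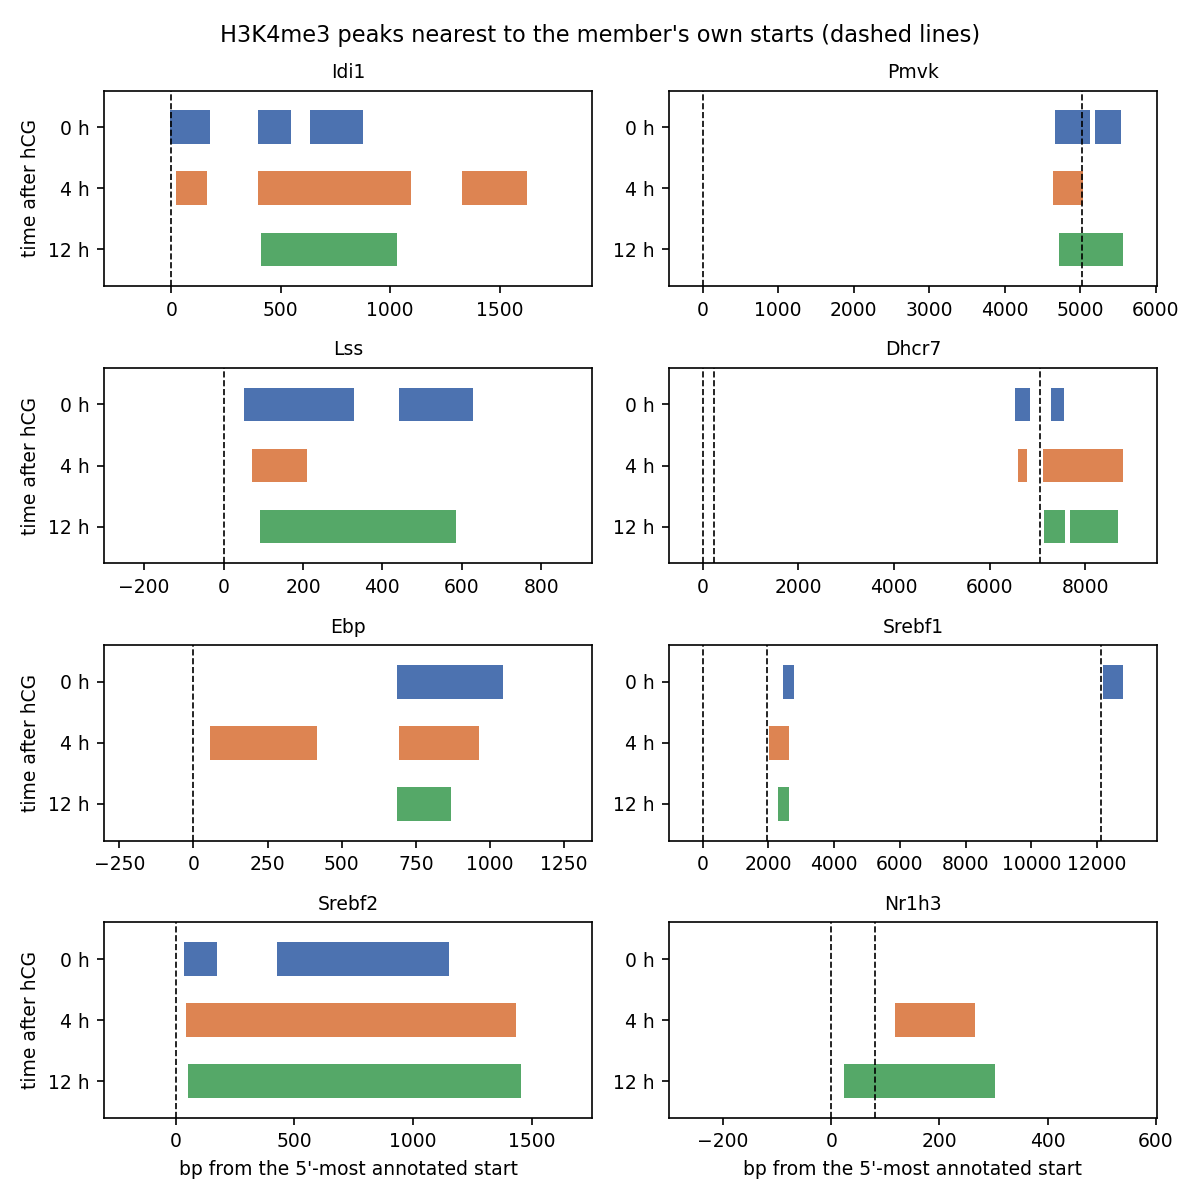
Peaks nearest to the starts of 8 members, drawn as bars along the gene (x axis, bp from the most upstream annotated start, with its own scale in each panel) at each time (y axis), with annotated starts as dashed lines. Srebf1 lacks its peak at the most downstream start at 4 h and 12 h, Srebf2 has a single unbroken peak then, Dhcr7 is widest at 4 h, and Lss and Pmvk are narrowest at 4 h.

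Neighbouring genes contributed to 13 of the 35 windows. Of 81, 83 and 67 peaks in the members' windows, 18, 20 and 14 lay nearer to the start of another gene, and they held 16.0%, 16.9% and 15.8% of the covered bp. Counted within 2.5 kb of starts, 5 members were broader and 4 narrower from 0 h to 4 h, against 17.7% and 12.3% of all genes. From 4 h to 12 h, 8 were broader and 5 narrower, against 11.4% and 17.5%, and from 0 h to 12 h, 5 were broader and 4 narrower, against 16.3% and 16.8%. On this measure Dhcr7, Npc1 and Srebf2 were again broader from 0 h to 12 h, together with Acat2 and Nr1h3, and Srebf1, Ebp, Nr1h2 and Tm7sf2 were again narrower. The start of Npc1 was not annotated and was taken as the gene end with more covered bp.

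**Figure D4:**
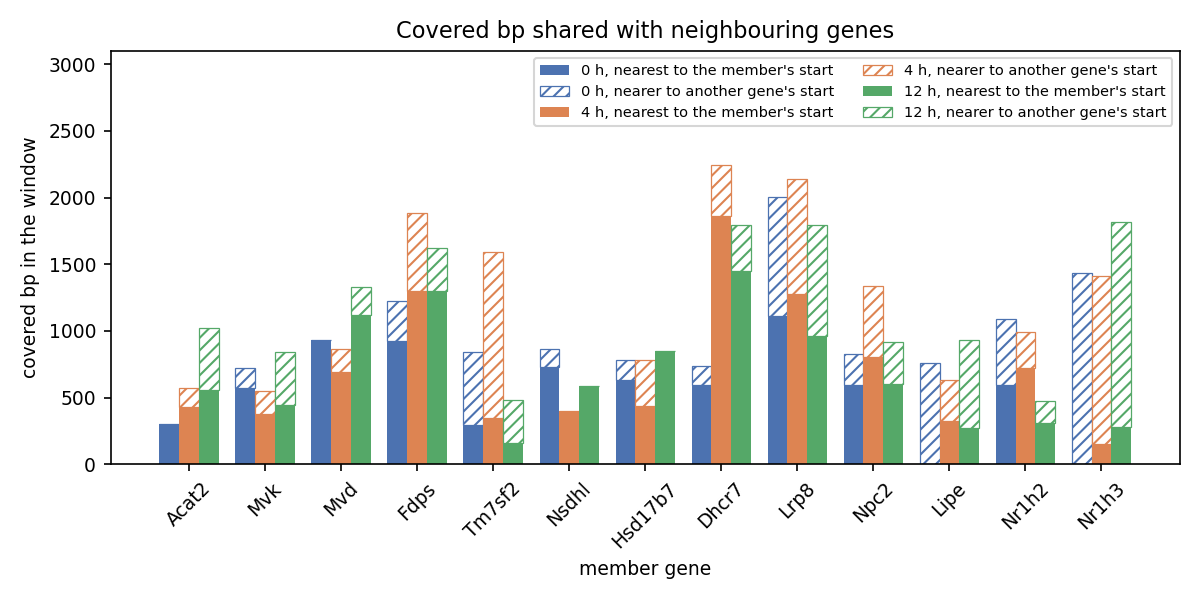
Covered bp in the window (y axis) for the 13 members with peaks nearer to another gene's start (x axis), with a bar per time. Filled parts are peaks nearest to the member's own start and hatched parts are nearer to another gene: at Nr1h3 the own part is 0, 150 and 280 bp.

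The peaks of the members lay mostly downstream of the start. Among the 20 members with a single annotated start and a peak there, 84.9%, 85.6% and 89.5% of the bp covered within 1 kb of the start lay downstream of it at 0 h, 4 h and 12 h, against 78.3%, 78.7% and 80.0% for all such genes. No peak within 1 kb upstream was present for 9, 14 and 16 of the 20, against 57.2%, 56.9% and 61.2% of all genes. A single peak of at least 1 kb, a limit chosen after the peaks were seen, was present at 3 members at 0 h (Sqle, Msmo1 and Scarb1), 10 at 4 h and 11 at 12 h. Over all genes with a peak these shares were 8.85%, 14.5% and 10.6%. At 12 h the members with such a peak included Hmgcs1, Fdps, Cyp51, Dhcr7, Abca1, Srebf2, Scap and Insig1. The widest peak of the median member measured 525, 695 and 742 bp, against 547, 608 and 564 bp over all genes.

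The 300 bases around the members' starts were reached by fewer peaks at 12 h. Promoter sequences were matched for 28 of the 35 members. Of those with a peak within 2.5 kb of a start, a peak reached this window in 13 of 27 members at 0 h, 13 of 28 at 4 h and 5 of 28 at 12 h, against 46.7%, 50.5% and 46.4% of all genes. The 5 at 12 h were Pmvk, Lrp8, Abca1, Insig2 and Nr1h3. Windows at Idi1, Cyp51, Msmo1, Srebf2, Insig1 and Nr1h2 were reached at 0 h and 4 h and not at 12 h, and the peaks covered 4 to 108 bp of them. The gap at 12 h was smaller without narrow peaks. There the members stood at 29.6%, 34.6% and 19.2% (8 of 27, 9 of 26 and 5 of 26) against 39.4%, 44.0% and 42.1% of all genes, so they were below all genes at each time and less far apart between times. From lists of equal length they stood at 44.4%, 42.3% and 17.9% against 44.7%, 48.0% and 46.4%, and with peaks joined across gaps of up to 1 kb at 63.0%, 57.1% and 28.6% against 54.2%, 56.4% and 52.9%. The part of the different peak naming at 12 h in these counts was not tested.

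CCAAT boxes were common in these promoters. The motif CCAAT, the known recognition sequence of NF-Y, which works with SREBP at many sterol genes, was found on either strand in 21 of 28 members, against 42.3% of 17492 genes with a promoter sequence and 43.7% of those with a peak at a start. Here and below a gene counts if any of its annotated starts has a match. Pmvk and Insig2 count for CCAAT only through their most upstream start, whose window no peak reached at any time. The GC box GGGCGG, known to bind Sp1, was found in 24 of 28 (85.7%), against 49.2% and 71.6%. The sterol regulatory element TCACNCCAC was found in 1 of 28 (Hmgcs1) and in 1.41% of all genes. Only this exact form was searched, so a site that differs by a letter, such as TCACCCCAT in the Srebf2 window, was not counted. The count therefore does not show that the other members lack a sterol element. CAAGGTCA, a motif of the steroidogenic factors NR5A1 and NR5A2, was found in 1 of 28, 52 bases before the most upstream start of Dhcr7, and in 1.56% of all genes. The cyclic AMP element TGACGTCA was found in 0 of 28 and in 2.54% of all genes. None of these motifs contains another, both strands were searched, and a match describes letters in a 300-base window only. The ratio of observed to expected CpG was above 0.6 in 21 of 28 members and in 50.8% of all genes. All genes here include many without a peak at a start. The share among genes with such a peak was not computed, so this difference is not shown to be particular to the members. Across the 28 members, Spearman's rho between this ratio and mean covered bp was 0.19, and with GC content it was 0.43, over points that share the same 3 libraries.

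**Figure D5:**
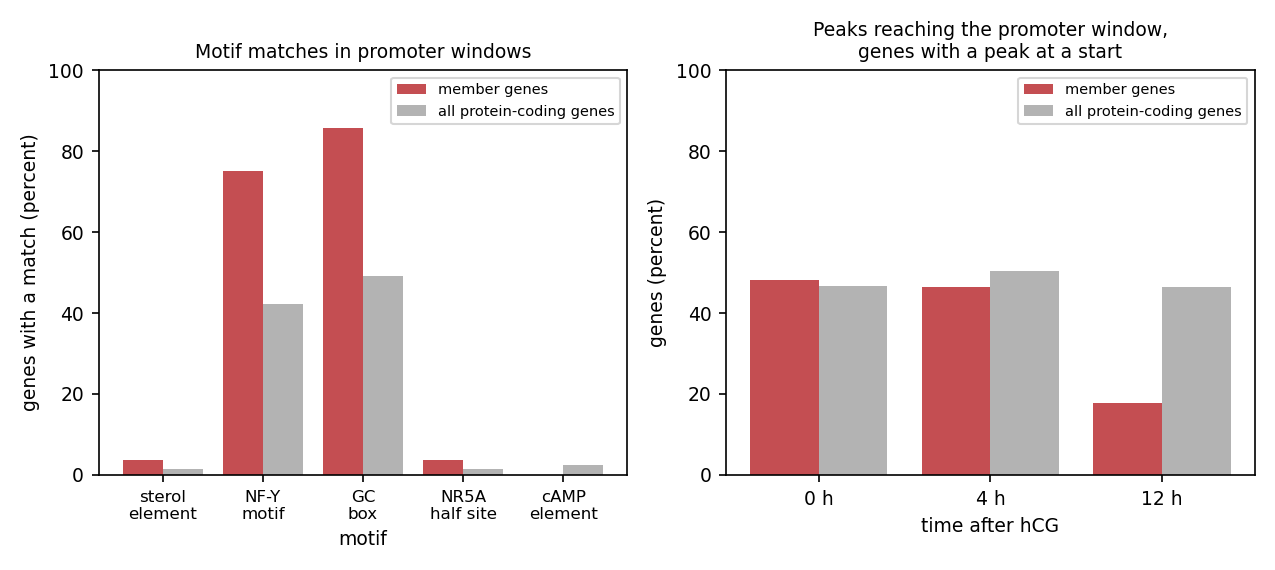
Left, percent of genes (y axis) whose promoter windows hold each of 5 motifs (x axis), for the 28 members with a promoter sequence (red) and all protein-coding genes (grey), with CCAAT boxes drawn as the NF-Y motif. Right, percent of genes (y axis) with a peak at a start whose promoter window is reached by a peak, by time (x axis): members stand at 48.1%, 46.4% and 17.9% and all genes at 46.7%, 50.5% and 46.4%.

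A list of 55 related sterol and lipid genes outside the member list showed no common direction. From 0 h to 4 h, 5 were broader, against 17.7% of all genes, and 8 narrower, against 12.0%. From 4 h to 12 h, 5 were broader and 6 narrower, against 11.3% and 17.4%, and from 0 h to 12 h, 8 and 10, against 16.0% and 16.4%. The list had median centred log2 ratios of -0.03, 0.03 and 0.04 in these comparisons. Values of this list are for the gene and 5 kb around it. Peaks nearer to a neighbour's start were not separated out, so part of a change may lie at a neighbouring gene. Plin2, which coats lipid droplets, had 162, 436 and 375 bp (1.31 from 0 h to 4 h and 1.23 from 0 h to 12 h). Osbpl2, a sterol transfer protein gene, had 260, 628 and 536 bp (1.16 from 0 h to 4 h), and Acsl4, which activates arachidonic acid, had 684, 1585 and 925 bp (1.10). In the same interval Stard5, a sterol carrier gene, was lowest with 454, 139 and 0 bp (-1.82). Its 139 bp at 4 h equal the narrowest peak width of that list. The 162 bp of Plin2 at 0 h lie near the narrowest width there (136 bp), so both ratios rest on values near the floor. Hilpda, which inhibits droplet lipolysis, had 747, 368 and 790 bp (-1.14) and Acss2, which makes acetyl-CoA from acetate, had 513, 282 and 324 bp (-0.98).

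The highest ratio from 4 h to 12 h in this list was that of Scd1, a fatty acid desaturase gene known as a target of SREBP-1 and LXR, with 378, 346 and 1063 bp (1.76, and 1.51 from 0 h to 12 h). Hilpda (1.24) and the fatty acid elongase gene Elovl6 with 1194, 860 and 1316 bp (0.75) followed. The lowest in that interval were Mylip, which targets lipoprotein receptors for degradation, with 1094, 1217 and 546 bp (-1.02), the sterol transfer protein gene Gramd1b (-0.85) and the desaturase gene Scd2 with 1051, 1047 and 573 bp (-0.73). From 0 h to 12 h the ESCRT ATPase gene Vps4a was among the highest with 774, 1716 and 1876 bp (1.30). The lowest there were Gramd1b with 1518, 835 and 422 bp (-1.83), the LXR partner Rxrb with 1193, 889 and 576 bp (-1.03) and Mylip (-0.98). Stard5, with 0 bp at 12 h, has no ratio to that time and counts as narrower.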

How the data were processed

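The authors deposited 1 peak list per library, which gives each peak's position and name but no score. CASAVA 1.8, Bowtie2 2.2.3, MACS2 2.0.9 and mm10 are named in the submitters' processing notes, with the peak threshold and any use of input DNA not given in the sources used here. All peak names at 0 h and 4 h hold the word nolambda and 0 at 12 h do, so peak calling may have differed. Starts, strands and promoters came from RefSeq tables (GRCm38.p6); where no start was given, the gene end with more covered bp was used. Near annotated starts (1 kb), 48.7% to 50.4% had a peak, and 3.02% to 3.37% after a 100 kb shift. Covered bp were computed with Python 3.11.15 and checked on simulated data. Ratios were centred on the median of all genes with peaks at both times. The members and lists were chosen with earlier results of these data known. All members are named, in full when past 1.5-fold or with peaks at some times only, and of the related list the 3 highest and 3 lowest ratios per comparison. Alternatives covered flanks, start windows, joined, narrow and widest peaks, centring and fold. The counts over peaks nearest to a member's own start and over promoter windows were added after seeing the data.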

Additional observations from a re-analysis of the deposited data

How the results depend on the processing

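Most counts of broader and narrower members kept within 1.5 times their value under other windows and peak lists. With 2-fold in place of 1.5-fold, 1 member was broader from 0 h to 4 h (10.6% of all genes), 2 broader and 2 narrower from 4 h to 12 h (5.58% and 10.2%), and 2 broader and 2 narrower from 0 h to 12 h (9.24% and 9.09%). Leaving out members with another protein-coding gene's start in their window left 22 members with a peak at each time. Of these, 3 were broader from 0 h to 4 h, and 3 were broader and 3 narrower from 4 h to 12 h. From 0 h to 12 h, 2 were broader and 3 narrower. The share of all genes was not computed for that restriction. Without narrow peaks 9 were broader from 0 h to 12 h (19.5% of all genes), and without centring 10 were broader from 0 h to 4 h; the cause of the former was not tested. The members' median from 0 h to 4 h turned positive with a 1 kb flank (0.07), within 2.5 kb of a start (0.11), without centring (0.05) and on own peaks (0.11), and the one from 4 h to 12 h was -0.01 without centring. Acat2 from 0 h to 4 h was -0.36 without narrow peaks, and Lipe from 4 h to 12 h was -0.11 on own peaks. Members' peaks overlapped by at least 1 bp at another time in 74.7% to 89.6% of cases. With overlap of 50% of both peaks the shares were 51.9% (0 h at 4 h), 43.2% (0 h at 12 h), 50.6% (4 h at 0 h), 42.2% (4 h at 12 h), 52.2% (12 h at 0 h) and 52.2% (12 h at 4 h). Shares over all peaks were not computed, so whether the members' peaks overlap more or less than others is not known. No paired analysis was possible because each time has 1 library, and no library could be left out. The lists hold no depth, so breadth near the narrowest peak width of each list (136, 139 and 152 bp) is the limit of what they show.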
